A study of Mus musculus with 16 samples.

Results

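Bone-marrow LSK cells of double mutant mice were compared with those of wild-type mice across all genes. The double mutant (DM, genotype Asxl1Y588XTg;Srsf2P95H/+) carries a transgene for a mutant form of Asxl1 together with a point mutation in 1 copy of Srsf2, and the wild type (WT) carries neither. The comparison takes the 4 DM and 4 WT libraries, chosen by their genotype labels, of the 16 in the series. The other 8 libraries, 4 with the transgene alone (Asxl1Tg, genotype Asxl1Y588XTg) and 4 with the Srsf2 mutation alone (Srsf2P95H, genotype Srsf2P95H/+), entered the same fit and are given where they bear on a DM value. All mice were C57BL/6, each library came from 1 mouse, and the cells were purified with beads. The design text of the series counts 3 DM samples, but 4 are labelled as such, and each of the 4 was included. The sources used here do not give the promoter of the transgene, any Cre that might switch on the Srsf2 allele, or the age and sex of the mice.

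LSK cells are lineage-negative cells that carry the receptor Kit and the surface antigen Sca-1, and they hold the haematopoietic stem cells and the earliest multipotent progenitors of the marrow. Asxl1 is a chromatin regulator that works with the deubiquitinase Bap1 and is linked to Polycomb-marked chromatin, and truncated forms of it recur in myeloid neoplasms. Srsf2 is a splicing factor of the SR family that binds exonic enhancers, and the change at proline 95 alters which exons it favours. Both genes are often mutated in the same human myeloid disease.

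The libraries held 114 to 128 M counts (megacounts) in DM and 83.0 to 124 M in WT, and 85.7 to 105 M in the single mutants. Levels are given as CPM, counts per megacount of library after TMM scaling, and each fold change as its log2 value. The standard error (SE) beside a fold change is an approximation, worked back from the fold change and the F statistic of its test. Genes counted as called had an adjusted p under 0.05 in edgeR's quasi-likelihood test with Benjamini-Hochberg adjustment over the 22749 genes tested. Asxl1 was at 226 ± 8.89 CPM in DM and 219.6 ± 7.32 CPM in WT, and Srsf2 at 204 ± 22.9 CPM in DM and 204 ± 27.8 CPM in WT (SD, n = 4 each), and neither passed (0.04, adjusted p = 0.687, and -0.01, adjusted p = 0.979). The mutant forms are not told apart by such counts, so these levels check neither the transgene nor the labels. Kit (953 to 1211 CPM in DM and 882 to 1015 CPM in WT), Ly6a, which encodes Sca-1 (27.8 to 43.1 CPM in DM and 23.2 to 34.1 CPM in WT), and Cd34 (921 to 1002 CPM in DM and 738 to 984 CPM in WT) did not pass. Xist, transcribed from the inactive X chromosome, was above 100 CPM in DM 1 and WT 1, whereas no other DM or WT library passed 2.11 CPM. WT 4 stood apart from the other WT libraries in summed levels of B-lineage genes (175 CPM, against 51.0 to 78.3), of eosinophil genes (1669 CPM, against 44.4 to 323) and of immediate-early genes (895 CPM, against 5548 to 13125). Mitochondrially encoded RNA took 0.760 to 1.07% of counts in DM and 0.797 to 0.941% in WT.

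In all, 2135 genes were called between DM and WT, 9.39% of those tested. Of these, 1058 were higher in DM (4.65% of genes tested) and 1077 were lower (4.73%). The rises were mostly modest changes of well-expressed genes, with a median of 0.45 on the log2 scale at a median level of 37.0 CPM. The falls were larger changes of genes at low levels, with a median size of 1.0 on the log2 scale at a median level of 2.06 CPM. A change of at least 2-fold was seen in 242 of the genes called higher and 540 of those called lower, and one of at least 4-fold in 55 and 110. The 4 DM and 4 WT values did not overlap in 1820 of the called genes, against 18.6% of all genes tested (9.28% higher and 9.35% lower in DM). With library size as the only scaling the calls were 551 higher and 1492 lower, and the median of all genes was -0.12 in place of -0.02. Without WT 4 the count was 1040, and without DM 1, DM 2, DM 4 or WT 3 it was 586 to 742.

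**Figure D1:**
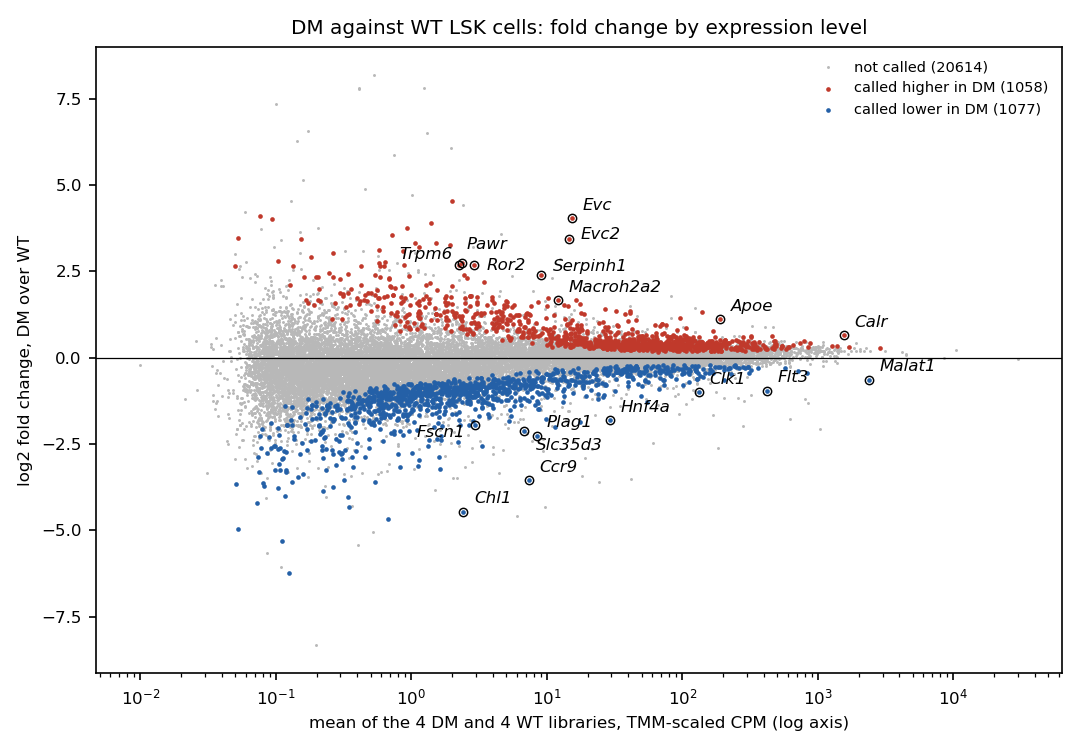
Each point is 1 of the 22749 genes tested, placed by its mean CPM over the 4 DM and 4 WT libraries (log axis) and its log2 fold change of DM over WT. Genes called higher in DM are red, genes called lower blue and the rest grey; Evc and Evc2 stand at the top of the labelled genes, and Chl1 and Ccr9 at the bottom.

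The gene pair Evc and Evc2 showed the 2 largest rises among the genes that the naming rule took for size. Both encode proteins of a complex at the base of the primary cilium, which relays the signal of the Hedgehog transducer Smo. Evc (chr5:37289098-37336894, minus strand) was at 32.2, 29.9, 30.7 and 23.3 CPM in the DM libraries, against 3.07, 1.22, 1.36 and 1.40 CPM in the WT libraries (log2 fold change 4.04, SE 0.30, adjusted p = 7.57e-06). Evc2 (chr5:37338499-37425055, plus strand) was at 30.1, 27.9, 27.5 and 20.3 CPM in DM mice and 4.96, 1.38, 1.90 and 1.57 CPM in WT mice (log2 fold change 3.43, SE 0.34, adjusted p = 0.000181). All DM libraries lay far above all WT libraries for both genes, and WT 1 was the highest WT library for both. Evc averaged 36.7 ± 6.92 CPM in Asxl1Tg and 3.71 ± 1.12 CPM in Srsf2P95H (SD, n = 4 each), and DM passed against Srsf2P95H (log2 fold change 2.97, adjusted p = 0.000177) but not against Asxl1Tg (-0.34, adjusted p = 0.546).

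The pair is transcribed away from each other, with 1604 bases between their annotated gene bounds (GRCm38). Their promoter windows, 250 bases before to 50 after each start, are shown because the 2 genes are neighbours that both rose. The starts used for the windows differ slightly from those bounds. The part of this region in the rises was not tested. They are RefSeq sequences of GRCm38.p6, written 5′ to 3′ along each gene, with CG dinucleotides in capitals.
Evc, chr5:37336832-37337131, minus strand: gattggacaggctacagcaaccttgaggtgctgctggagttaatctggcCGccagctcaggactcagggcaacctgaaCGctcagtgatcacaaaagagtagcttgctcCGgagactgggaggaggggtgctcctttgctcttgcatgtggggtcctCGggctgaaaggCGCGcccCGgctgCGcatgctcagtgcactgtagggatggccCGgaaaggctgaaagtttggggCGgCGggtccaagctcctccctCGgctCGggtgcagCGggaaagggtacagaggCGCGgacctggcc
Evc2, chr5:37338228-37338527, plus strand: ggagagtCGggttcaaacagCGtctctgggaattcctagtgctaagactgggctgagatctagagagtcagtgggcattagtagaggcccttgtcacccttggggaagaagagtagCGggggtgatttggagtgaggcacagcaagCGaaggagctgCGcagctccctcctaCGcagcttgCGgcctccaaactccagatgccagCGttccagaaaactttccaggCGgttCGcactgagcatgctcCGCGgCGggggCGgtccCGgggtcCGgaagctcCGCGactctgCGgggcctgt
The Evc window holds 16 CG dinucleotides and the Evc2 window 19, against a median of 7 over 32851 promoter windows of the same length (quartiles 3 and 20).

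Within 1 megabase of the pair, 22 other genes were tested, of which 3 were called higher and 2 lower, beside 4.65% higher and 4.73% lower over all genes tested. These 5 genes were named after their values were seen. Nsg1, a neuronal endosomal protein, was at 8.34 ± 1.85 CPM in DM and 3.54 ± 0.996 CPM in WT (SD, n = 4; 1.23, adjusted p = 0.0111), and its mean was 11.8 CPM in Asxl1Tg and 3.75 CPM in Srsf2P95H. The lysosomal mannosidase gene Man2b2 was at 98.5 ± 4.49 CPM in DM and 67.4 ± 6.07 CPM in WT (0.55, adjusted p = 0.00145). The pseudogene Gm15732, which lies inside Evc2, rose as well (4.09) but was at 0.231 CPM or less in the DM and WT libraries, and reads of it and of Evc2 cannot be told apart here since the strand setting of the counting is not given. The lower genes were Gm1043 (-1.66) and Gm42858 (-1.10), both at 1.32 CPM or less in these libraries. Wfs1, Stx18 and Lyar of the same interval did not pass.

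Serpinh1 and Macroh2a2 rose with the same adjusted p as Evc. Serpinh1, the chaperone of procollagen in the endoplasmic reticulum, was at 13.0, 15.4, 20.4 and 11.8 CPM in the DM libraries, against 2.60, 2.41, 3.94 and 2.66 CPM in the WT libraries (log2 fold change 2.38, SE 0.20, adjusted p = 7.57e-06). Macroh2a2, a histone variant of silent chromatin, was at 16.4, 20.9, 16.8 and 19.4 CPM in DM mice and 5.51, 5.04, 7.28 and 5.20 CPM in WT mice (log2 fold change 1.67, SE 0.13, adjusted p = 7.57e-06). The groups were wide apart for both genes, and the spread within each was small beside the gap. Serpinh1 was at 16.2 ± 1.61 CPM in Asxl1Tg and 2.83 ± 0.515 CPM in Srsf2P95H, and Macroh2a2 at 17.8 ± 1.69 and 7.05 ± 0.429 CPM. In both genes DM was above Srsf2P95H (log2 fold change 2.42, adjusted p = 1.84e-05, and 1.38, adjusted p = 6.49e-05). Neither passed against Asxl1Tg (-0.10, adjusted p = 0.836, and 0.04, adjusted p = 0.904).

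Trpm6, a magnesium channel with a kinase domain, was at 3.56, 4.25, 5.07 and 3.53 CPM in the DM libraries, against 1.37, 0.324, 0.353 and 0.398 CPM in the WT libraries (log2 fold change 2.75, SE 0.40, adjusted p = 0.00162). Pawr, a promoter of apoptosis, was at 5.57, 4.33, 4.21 and 1.37 CPM in DM mice and 0.508, 0.612, 0.627 and 0.670 CPM in WT mice (log2 fold change 2.68, SE 0.59, adjusted p = 0.0162). Trpm6 was even across the DM mice, whereas DM 4 had a Pawr level far below that of the other DM mice and still above every WT mouse. Ror2, a receptor for Wnt5a, rose by 2.67, the potassium channel gene Kcnq3 by 2.39 and Sel1l3 by 2.31 on the log2 scale. The calls of Trpm6, Pawr and Sel1l3 held in each alternative run, and the calls of Ror2 and Kcnq3 were lost in 7 to 9 alternatives (adjusted p up to 0.0941). Among genes of at least 10 CPM, the rule added the kinesin gene Kif21a (1.73), the keratin gene Krt80 (1.67), the laminin chain Lama5 (1.54), the heparan sulfate proteoglycan syndecan Sdc2 (1.51) and the PDZ scaffold Mpdz (1.50). Kif21a ranged over 13.5 to 18.1 CPM in DM and 2.87 to 8.69 CPM in WT, with WT 1 the highest of the WT libraries, and Lama5 over 17.9 to 31.6 CPM in DM and 5.78 to 15.3 CPM in WT, again with WT 1 at the top. The remaining WT libraries lay at 2.87 to 3.77 CPM for Kif21a. Of these 5 only the call of Sdc2 was lost, in 4 alternatives (adjusted p up to 0.0574).

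**Figure D2:**
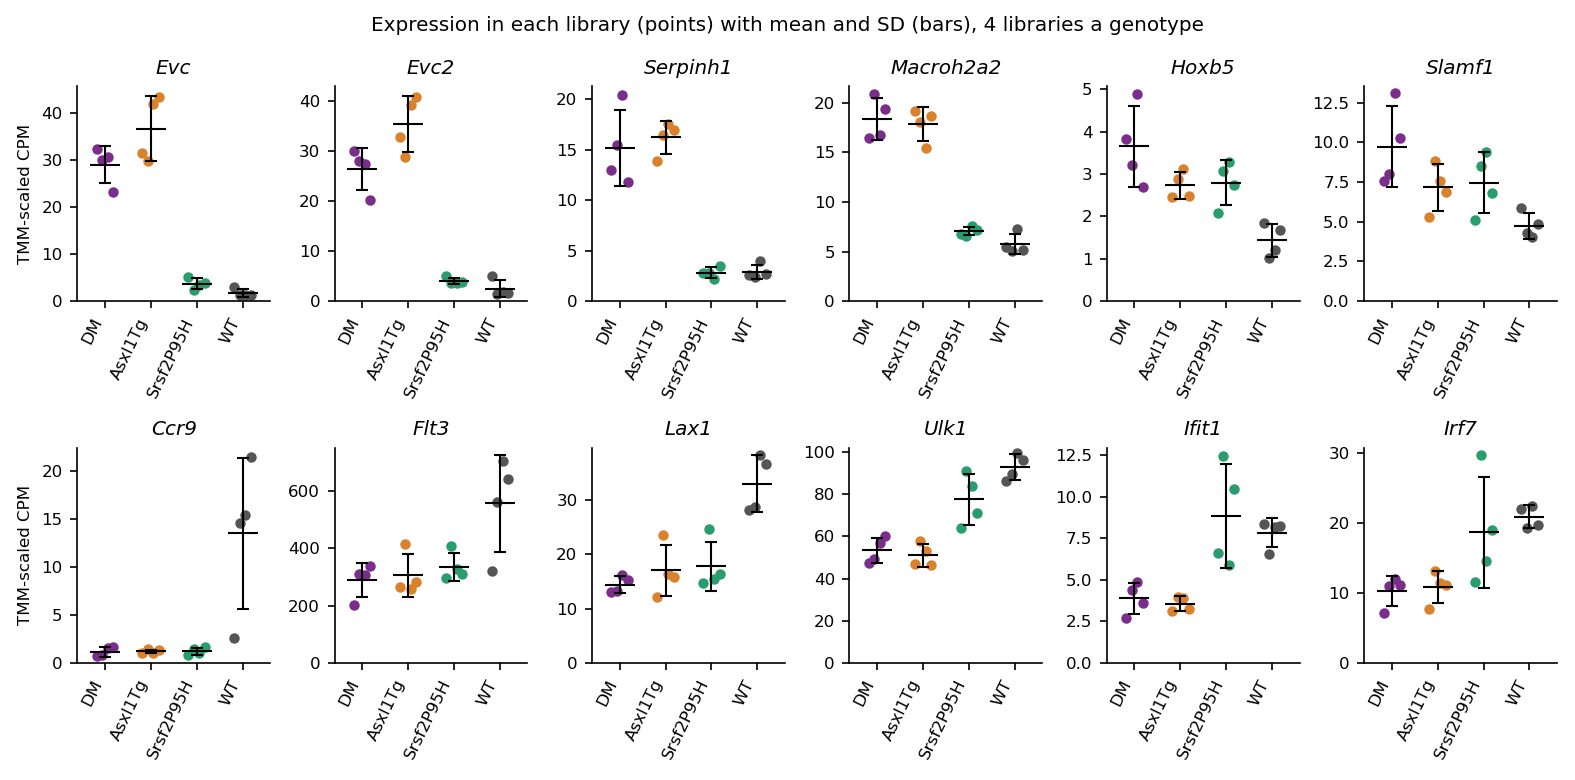
CPM of 12 genes in each of the 16 libraries, by genotype, with the mean and SD of each genotype (n = 4); each vertical axis is linear and starts at 0. In the upper row Evc, Evc2, Serpinh1 and Macroh2a2 are high in DM and Asxl1Tg and low in Srsf2P95H and WT; in the lower row Ccr9 is at 1.60 CPM or less in each DM library and at 2.56 to 21.4 CPM in WT.

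The 2 largest falls among the genes that the naming rule took for size were those of Ccr9 and Chl1. Ccr9, the chemokine receptor that guides lymphoid progenitors to the thymus, was at 0.657, 0.757, 1.58 and 1.60 CPM in the DM libraries, against 2.56, 14.6, 15.4 and 21.4 CPM in the WT libraries (log2 fold change -3.55, SE 0.50, adjusted p = 0.00170). Chl1, an adhesion molecule known from neurons, was at 0.189, 0.173, 0.207 and 0.271 CPM in DM mice and 0.323, 3.60, 4.92 and 9.70 CPM in WT mice (log2 fold change -4.46, SE 0.77, adjusted p = 0.00583). In both genes WT 1 was the lowest WT library and close to the DM values, while the other WT libraries were several-fold above them. The call of each held in every alternative run that tested it, the fit without WT 1 included. Ccr9 averaged 1.15 ± 0.513 CPM in DM, 1.18 ± 0.196 CPM in Asxl1Tg and 1.21 ± 0.361 CPM in Srsf2P95H (SD, n = 4 each), and DM passed against neither single mutant (log2 fold change -0.03, adjusted p = 0.983, and -0.07, adjusted p = 0.998).

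Plag1, a zinc-finger transcription factor of fetal tissues, was at 3.16, 1.94, 4.55 and 1.97 CPM in the DM libraries, against 8.95, 11.3, 14.4 and 21.1 CPM in the WT libraries (log2 fold change -2.26, SE 0.32, adjusted p = 0.00155). Fscn1, which bundles actin filaments, was at 1.13, 1.16, 1.74 and 0.814 CPM in DM mice and 2.98, 3.59, 6.92 and 5.09 CPM in WT mice (log2 fold change -1.94, SE 0.28, adjusted p = 0.00134). For each of them the highest DM value lay below the lowest WT value. Lower too were the solute carrier Slc35d3 (-2.12), Arpp21, a cAMP-regulated phosphoprotein (-2.0), Trcg1 (-1.95) and the ephrin receptor Epha1 (-1.86). The calls of Plag1 and Fscn1 held in each alternative run, and the calls of Slc35d3, Arpp21, Trcg1 and Epha1 were lost in 4 to 9 alternatives (adjusted p up to 0.124). At 10 CPM and above the rule added Hnf4a, a nuclear receptor best known from liver (7.32 to 16.2 CPM in DM and 20.4 to 78.8 CPM in WT; -1.82), and Lax1, an adaptor that dampens lymphocyte receptor signalling (13.0 to 16.2 CPM in DM and 28.2 to 38.5 CPM in WT; -1.20). It also added the RNA sensor Tlr7 (-1.28), the sialic acid hydroxylase Cmah (-1.13), Ccser1 (-1.13) and H2-Ob, which tunes peptide loading of MHC class II (-1.12). Cmah was lowest in DM 1 among the DM libraries (10.5 CPM, against 17.6 to 18.6) and in WT 1 among the WT libraries (19.3 CPM, against 39.5 to 42.8), the 2 libraries with Xist. The calls of Lax1 and Ccser1 held in each alternative run, and the calls of Hnf4a, Tlr7, Cmah and H2-Ob were lost in 1 to 9 alternatives (adjusted p up to 0.124).

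Among genes of at least 100 CPM, the largest rise was in the chemokine gene Ccl9 (238, 270.2, 150.1 and 143 CPM in the DM libraries, against 118, 94.3, 53.1 and 57.4 CPM in the WT libraries; log2 fold change 1.31, SE 0.37, adjusted p = 0.0455). Apoe, an apolipoprotein, followed at 216, 332, 272 and 221 CPM in DM mice and 144, 130.0, 74.9 and 134 CPM in WT mice (log2 fold change 1.11, SE 0.24, adjusted p = 0.0179). DM 3 and DM 4 were the lowest DM libraries for Ccl9, and for Apoe each DM mouse was above each WT mouse. The other rises were a histone H4 gene (Hist1h4n, 0.85), the myeloid hexokinase Hk3 (0.78), the glutathione enzyme subunit Gclm (0.66) and the chaperone calreticulin (Calr, 0.65). Histone H4 genes are near-identical copies, so the reads of Hist1h4n may be shared with others. The falls were Clk1, a kinase of SR proteins (-0.99), the demethylase of histone H3 lysine 27 Kdm6b (-0.79), the kinesin Kif21b (-0.71), the nuclear RNA Malat1 (-0.64), the repair protein gene Trp53bp1 (-0.61) and Akna (-0.55). Clk1 was at 80.4, 95.3, 81.1 and 97.0 CPM in DM and 179, 187, 213 and 125 CPM in WT, and Malat1 at 1794, 1718, 2284 and 1653 CPM in DM and 2554, 2654, 2924 and 3487 CPM in WT. Neither gene's groups overlapped, and WT 4 was the lowest WT library for Clk1 and the highest for Malat1. The call of Trp53bp1 held in each alternative run, and the calls of Ccl9, Apoe, Hist1h4n, Hk3, Gclm, Calr, Clk1, Kdm6b, Kif21b, Malat1 and Akna were lost in 1 to 10 alternatives (adjusted p up to 0.122).

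Gene lists were written from textbook knowledge but chosen with earlier results of these data known, so their shares of calls are a description only. They are described next by how many members were called, beside 4.65% higher, 4.73% lower and a median of -0.02 over all genes. Over protein-coding genes alone 6.91% were called higher and 4.02% lower, with a median of 0.07. Rises were more frequent than falls among well-expressed protein-coding genes. At 10 to 100 CPM 536 of 6859 were called higher and 188 lower, and at 100 CPM or more 199 and 53 of 2280. These were bulk samples, in which fewer cells of a type and less RNA per cell cannot be told apart.

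Of 26 genes of haematopoietic stem cells, 5 were called higher and none lower, and the list median was 0.20. Hoxb5, a homeobox gene that marks long-lived stem cells, was at 3.82, 3.21, 4.88 and 2.68 CPM in the DM libraries, against 1.84, 1.01, 1.21 and 1.67 CPM in the WT libraries (log2 fold change 1.35, SE 0.23, adjusted p = 0.00432). Slamf1, the surface receptor CD150 used to sort stem cells, was at 7.59, 8.0, 13.1 and 10.3 CPM in DM mice and 5.85, 4.27, 4.03 and 4.87 CPM in WT mice (log2 fold change 1.03, SE 0.22, adjusted p = 0.0121). No DM value of either overlapped a WT value, and DM 3 was the highest library for each. Tek, the angiopoietin receptor (0.95), the adhesion molecule Esam (0.74) and the catenin-like Ctnnal1 (0.53) rose too. Esam ranged over 35.5 to 51.3 CPM in DM and 18.7 to 32.3 CPM in WT, and Tek over 37.8 to 51.2 CPM in DM and 17.9 to 31.3 CPM in WT. The calls of Hoxb5, Slamf1 and Esam held in each alternative run, and the calls of Tek and Ctnnal1 were lost in 2 to 6 alternatives (adjusted p up to 0.0885). Summed over the list the level was 4310 to 4994 CPM in DM and 4058 to 4501 CPM in WT, so the sums overlapped.

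The Hoxb cluster, a run of homeobox genes expressed in primitive blood cells, had 5 of 8 members called higher and none lower, with a list median of 1.10. Hoxb8, which can hold back myeloid differentiation, was at 1.23, 1.18, 2.41 and 1.42 CPM in the DM libraries, against 0.300, 0.0480, 0.141 and 0.244 CPM in the WT libraries (log2 fold change 3.08, SE 0.45, adjusted p = 0.00168). Hoxb9 was at 0.279, 0.538, 1.0 and 0.477 CPM in DM mice and 0.139, 0.0240, 0.118 and 0.136 CPM in WT mice (log2 fold change 2.44, SE 0.48, adjusted p = 0.00965). All DM values lay above all WT values for each gene, although Hoxb9 was at a low level in both groups. The others were Hoxb5, Hoxb2 (1.27) and Hoxb6 (0.92). The cluster summed to 16.8 to 24.6 CPM in DM and 10.1 to 16.4 CPM in WT. None of 9 tested Hoxa genes was called in either direction, with a list median of -0.33. The calls of Hoxb8 and Hoxb9 held in each alternative run that tested them. Those of Hoxb2 and Hoxb6 were lost in 10 alternatives (adjusted p up to 0.107).

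Lymphoid priming genes, those that multipotent progenitors switch on as they turn towards the lymphoid fate, had none of 18 called higher and 5 called lower, and a list median of -0.90. Flt3, the cytokine receptor of lymphoid-primed progenitors, was at 203, 309, 305 and 337 CPM in the DM libraries, against 319, 564, 705 and 644 CPM in the WT libraries (log2 fold change -0.95, SE 0.23, adjusted p = 0.0239). Lef1, a Wnt-responsive factor of lymphocytes, was at 0.189, 0.392, 0.215 and 0.230 CPM in DM mice and 0.877, 1.22, 0.447 and 5.50 CPM in WT mice (log2 fold change -2.97, SE 0.61, adjusted p = 0.0116). The lowest WT value of Flt3, in WT 1, lay inside the DM range, and the Lef1 level of WT 4 stood far above all others. Tcf7, a T-lineage factor, fell by 1.02 and Bcl11a, a factor of B-cell and progenitor development, by 0.33 on the log2 scale, and Ccr9 was the fifth. Without WT 4 only 2 of the 5 were called and the list median was -0.67. The call of Ccr9 held in each alternative run, and the calls of Lef1, Flt3, Tcf7 and Bcl11a were lost in 1 to 9 alternatives (adjusted p up to 0.136). The summed level was 2329 to 2663 CPM in DM and 2449 to 4203 CPM in WT, with WT 1 lowest and WT 4 highest of the WT libraries.

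B-lineage genes had none of 16 called higher and 2 lower, the scaffold Bank1 (-1.83) and the kinase Blk (-2.13), with a list median of -1.70. Without WT 4 none was called and the median was -0.36. The list summed to 52.1 to 66.1 CPM in DM and 51.0 to 175 CPM in WT, with no member at 0 in every library of either group. Of 18 genes of T and natural killer cells, the surface glycoprotein Thy1 (14.6 to 30.7 CPM in DM and 8.22 to 14.3 CPM in WT; 1.30) and the granule protein gene Nkg7 (0.57) were called higher. The kinase Lck (-0.93) and the receptor Ncr1 (-4.32) were called lower. The T and natural killer list had a median of -1.35, with 3 members above 0 and 15 below. Its sums were 131 to 215 CPM in DM and 130 to 165 CPM in WT. Of 12 dendritic cell genes, the E-protein gene Tcf4 (-0.27) and the integrin Itgax (-0.87) were lower, with a list median of -0.50. The dendritic list summed to 332 to 371 CPM in DM and 383 to 444 CPM in WT. Without WT 4 there were 1 higher and 1 lower call among the T and natural killer genes and none among the dendritic genes. The medians of these lists were then -1.05 and -0.39. The call of Thy1 held in each alternative run, and the calls of Bank1, Blk, Nkg7, Lck, Ncr1, Tcf4 and Itgax were lost in 4 to 12 alternatives (adjusted p up to 0.126).

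Genes of granulocyte-monocyte progenitors summed to 4344 to 7702 CPM in DM and 1657 to 5196 CPM in WT, with a list median of 0.46, yet 1 of 17 was called, the zinc-finger repressor Gfi1 (36.2, 53.6, 42.6 and 56.4 CPM in the DM libraries, against 30.0, 38.1, 35.0 and 34.5 CPM in the WT libraries; log2 fold change 0.46, SE 0.13, adjusted p = 0.0445). The chemokine receptor Cxcr2 (0.87) was the only call among 14 genes of mature neutrophils. Among 18 megakaryocyte genes the integrin chains Itgb3 (0.95) and Itga2b (0.48), which pair on platelets, were called higher, and the list summed to 1090 to 1222 CPM in DM and 887 to 1018 CPM in WT. Without WT 4 none of these 3 lists had a call, and Gfi1, Cxcr2, Itgb3 and Itga2b were each lost in 10 to 13 alternatives (adjusted p up to 0.128). None of 15 monocyte, 20 erythroid, 10 eosinophil, 12 mast cell and 14 stromal genes was called in either direction, with list medians of -0.76, -0.30, -2.45, -0.51 and 0.13. Without WT 4 the monocyte median was 0.01 and the eosinophil median -1.19. The summed eosinophil level was 64.1 to 127 CPM in DM and 44.4 to 1669 CPM in WT, and the share of such cells in these results was not tested.

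**Figure D3:**
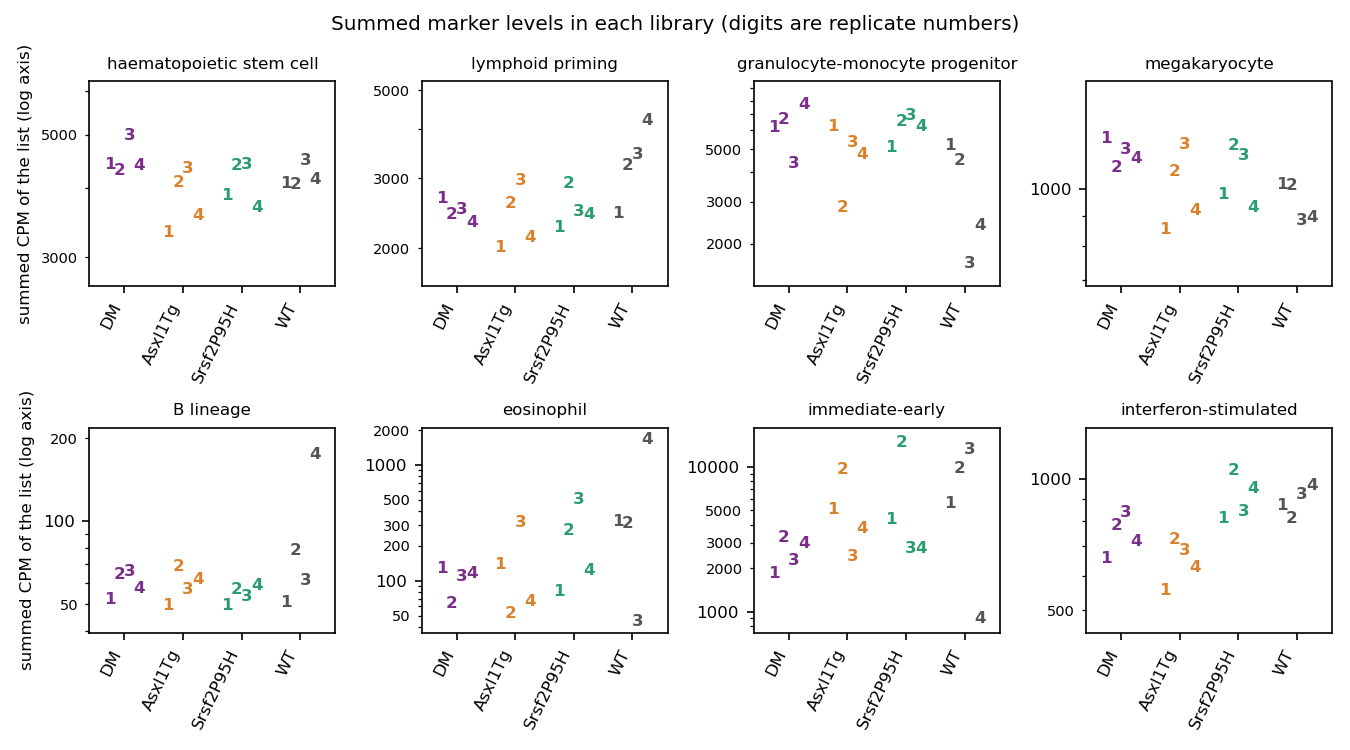
Summed CPM of 8 gene lists in each library (log axes), drawn as the replicate number of the library and grouped by genotype. WT 4 is far above the other WT libraries for B-lineage (175 CPM) and eosinophil genes (1669 CPM) and far below them for immediate-early genes (895 CPM), while the DM libraries lie at 4344 to 7702 CPM for granulocyte-monocyte progenitor genes.

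Matrix genes held the list with the largest share of rises after the Hoxb cluster. Of 22 collagen and matrix genes 8 were called higher and 1 lower, and the list median was 0.59. Besides Serpinh1, Matn4, a matrilin of the extracellular matrix, was at 3.01, 1.73, 3.64 and 2.61 CPM in the DM libraries, against 0.266, 0.360, 0.188 and 0.281 CPM in the WT libraries (log2 fold change 3.33, SE 0.40, adjusted p = 0.000398). Pxdn, a peroxidase that cross-links basement membrane, was at 3.72, 3.63, 2.19 and 0.888 CPM in DM mice and 0.404, 0.0600, 0.0705 and 0.172 CPM in WT mice (log2 fold change 3.89, SE 0.70, adjusted p = 0.00695). Both were low in every WT mouse, and Pxdn spread widely among DM mice. The basement-membrane collagens Col18a1 (1.60), Col4a1 (0.60) and Col4a2 (0.61) and the lysyl hydroxylases Plod1 (0.77) and Plod2 (0.57), which modify procollagen, rose. Postn, which encodes the matricellular protein periostin, was the member that fell (0.468 to 1.06 CPM in DM and 0.658 to 5.64 CPM in WT; -2.46), with WT 1 inside the DM range. Without WT 4 there were 6 rises in the list. Col4a1, Col4a2 and Plod1 were not among them, and a member not called in the main fit was. The calls of Matn4, Pxdn, Col18a1 and Postn held in each alternative run, and the calls of Col4a1, Col4a2, Plod1 and Plod2 were lost in 3 to 10 alternatives (adjusted p up to 0.101).

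Of 26 genes of the cilium and the Hedgehog pathway, 5 were called higher and 2 lower, with a list median of -0.06, so the rises were those of single members. Dzip1l, a protein of the ciliary base, was at 4.16, 4.23, 3.82 and 3.12 CPM in the DM libraries, against 0.393, 0.0240, 0.0862 and 0.163 CPM in the WT libraries (log2 fold change 4.53, SE 0.52, adjusted p = 0.000344). Smo, the transmembrane transducer of Hedgehog signals, was at 125, 126, 116 and 114 CPM in DM mice and 96.9, 90.7, 101 and 85.6 CPM in WT mice (log2 fold change 0.36, SE 0.08, adjusted p = 0.0125). The transcription factor Gli2 was at 0.369, 0.410, 0.747 and 0.247 CPM in DM and 0.139, 0.108, 0.0548 and 0.0543 CPM in WT (2.33). Each of these genes was higher in every DM mouse than in any WT mouse, although Gli2 stayed under 1 CPM. The Evc partner Iqce (-0.35) and the transport protein gene Ift172 (-0.24) fell. The calls of Evc, Evc2, Dzip1l and Smo held in each alternative run, and the calls of Gli2, Iqce and Ift172 were lost in 1 to 10 alternatives (adjusted p up to 0.135). Among 24 adhesion and homing genes, 4 were called higher and 2 lower. The laminin receptor chain Itga6 (283 to 331 CPM in DM and 186 to 263 CPM in WT; 0.50), the talin Tln2 (1.61), the fibronectin receptor chain Itga5 (0.32) and Cxcr4, the receptor that holds stem cells in the marrow (0.35), rose. The syndecan Sdc4 (-1.78) and Chl1 fell. The calls of Itga6, Tln2 and Chl1 held in each alternative run that tested them. Those of Cxcr4, Itga5 and Sdc4 were lost in 12, 7 and 2 alternatives (adjusted p up to 0.170).

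Interferon-stimulated genes had none of 28 called higher and 6 lower, and a list median of -0.35. Irf7, the factor that amplifies the type I interferon response, was at 7.16, 10.9, 11.9 and 11.1 CPM in the DM libraries, against 22.0, 19.3, 22.5 and 19.6 CPM in the WT libraries (log2 fold change -1.02, SE 0.24, adjusted p = 0.0208). Ifit1, an antiviral protein that binds foreign RNA caps, was at 2.67, 4.37, 4.85 and 3.56 CPM in DM mice and 8.36, 6.55, 8.16 and 8.24 CPM in WT mice (log2 fold change -1.02, SE 0.23, adjusted p = 0.0158). Ifit3, its partner, was at 0.378, 0.474, 0.922 and 0.642 CPM in DM and 1.34, 1.46, 1.84 and 2.14 CPM in WT (log2 fold change -1.49, SE 0.35, adjusted p = 0.0192). Every DM library was below every WT library for these 3 genes. The dynamin-like antiviral genes Mx1 (-1.44) and Mx2 (-1.11) and the receptor transporter Rtp4 (-0.65) fell as well. Mx2 is annotated as a polymorphic pseudogene. The calls of Irf7, Ifit1, Ifit3, Mx1, Mx2 and Rtp4 were lost in 1 to 7 alternatives (adjusted p up to 0.0978). Without WT 4, 3 of the 6 were called. Over all libraries the list summed to 656 to 837 CPM in DM, against 813 to 968 CPM in WT. Ifit1 stood at 3.55 ± 0.449 CPM in Asxl1Tg and 8.85 ± 3.14 CPM in Srsf2P95H (SD, n = 4 each), and its DM level was below that in Srsf2P95H (-1.19, adjusted p = 0.0386).

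The promoter windows of Ifit1 and Ifit3 are shown because they carry the binding motif of interferon regulatory factors, searched here as GAAANNGAAA on both strands. They are RefSeq sequences (GRCm38.p6, plus strand, 5′ to 3′), and the capitals mark the motif as it reads on the opposite strand.
Ifit1, chr19:34640639-34640938: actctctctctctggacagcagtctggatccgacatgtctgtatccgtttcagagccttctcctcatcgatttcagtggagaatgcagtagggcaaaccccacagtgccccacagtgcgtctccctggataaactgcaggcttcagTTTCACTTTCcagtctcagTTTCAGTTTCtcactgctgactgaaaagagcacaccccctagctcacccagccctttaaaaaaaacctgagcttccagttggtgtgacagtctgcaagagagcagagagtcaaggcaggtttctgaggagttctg
Ifit3, chr19:34583279-34583578: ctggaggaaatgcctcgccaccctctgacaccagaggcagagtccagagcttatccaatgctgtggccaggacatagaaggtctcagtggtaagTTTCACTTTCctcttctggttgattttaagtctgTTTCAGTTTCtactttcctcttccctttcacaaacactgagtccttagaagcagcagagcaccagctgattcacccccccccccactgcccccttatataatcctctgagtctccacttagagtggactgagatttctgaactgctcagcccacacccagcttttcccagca
Counted from each start, the motifs begin at positions -104 and -85 in Ifit1 and at -156 and -122 in Ifit3. Of 18 interferon-list genes with a window, 11 (61.1%) held the motif, against 3.99% of 27025 genes with a window and 3.44% of 32851 windows. Of the 3 called genes with a window, Ifit1 and Ifit3 held it and Irf7 did not, which says only that these letters are not in the window of Irf7.

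Signalling lists gave scattered calls. Of 20 cytokine receptor and JAK-STAT genes, the oncostatin M receptor Osmr was higher (2.38) and the feedback inhibitors Socs2 (-0.78) and Cish (-0.61) were lower. Of 19 Wnt genes, β-catenin (Ctnnb1, 350.5 to 384 CPM in DM and 291 to 322 CPM in WT; 0.26) and the secreted inhibitor Sfrp1 (1.49) rose, and the inhibitor Nkd2 (0.171 to 0.246 CPM in DM and 0.760 to 0.820 CPM in WT; -1.92), the ligand Wnt2b (-1.06) and the factor Tcf7l2 (-0.51) fell. The Notch ligand Jag1 (3.47 to 3.62 CPM in DM and 1.90 to 2.52 CPM in WT; 0.71) was the only call of 16 Notch genes. In the TGF-β list 3 of 22 rose, the co-receptor Tgfbr3 (66.8 to 106 CPM in DM and 49.3 to 66.2 CPM in WT; 0.71), the ligand Tgfb1 (0.36) and Bmp4 (1.36), the last at 1.37 CPM or less. The calls of Jag1 and Tgfbr3 held in each alternative run, and the calls of Osmr, Socs2, Cish, Ctnnb1, Sfrp1, Nkd2, Wnt2b, Tcf7l2, Tgfb1 and Bmp4 were lost in 1 to 14 alternatives (adjusted p up to 0.159). The interleukin-1 receptor Il1r1 (-0.91) was the 1 call, lower, among 22 NF-kB and inflammatory genes, and was lost in 8 alternatives (adjusted p up to 0.108).

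None of 20 immediate-early genes, the fast responders to growth factors and stress, was called in either direction, although the median of the list was -1.23. Fos, named after its values were seen, was at 270.3, 542, 246 and 553 CPM in the DM libraries, against 1322, 2173, 3145 and 37.8 CPM in the WT libraries (log2 fold change -2.05, SE 1.03, adjusted p = 0.197). WT 4 lay below all DM libraries and the other WT libraries above them all. Without WT 4 the list median was -1.58 and 1 member was called lower.

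Genes of growth and division had small positive list medians and few calls. All 25 DNA replication genes had a fold change above 0, with a list median of 0.34, and 4 were called: Gins3 (0.44), Pola1 (0.43), Tyms (0.41) and Mcm4 (0.37). Mcm4, a subunit of the replicative helicase, was at 359, 335, 279.8 and 324 CPM in the DM libraries, against 270.3, 264, 264 and 209 CPM in the WT libraries (log2 fold change 0.37, SE 0.11, adjusted p = 0.0438). WT 4 was the lowest library, and without it none of the 4 was called and the list median was 0.27. Each of the 4 was lost in 7 to 10 alternatives (adjusted p up to 0.137). Of 24 mitotic genes Birc5 (survivin) was called (0.40), and Rbl1, a pocket protein that restrains E2F, was the 1 call of 13 G1 genes (0.34). Neither was called without WT 4, and in all Birc5 was lost in 11 alternatives and Rbl1 in 6 (adjusted p up to 0.133). Among 29 nuclear genes of oxidative phosphorylation, the median was 0.27 and the subunit genes Ndufb5 (0.40), Atp5c1 (0.29) and Cox6c (0.33) were called higher. None of these 3 was called without WT 4, and each was lost in 6 to 8 alternatives (adjusted p up to 0.120). Of 26 ribosomal protein genes, all with a fold change above 0, Rps27l was called (88.9 to 115 CPM in DM and 49.9 to 81.7 CPM in WT; 0.62), in each alternative run, and none of 24 MYC and ribosome biogenesis genes was called in either direction (median 0.22). With library size as the only scaling these medians were 0.24, 0.17, 0.18, 0.13 and 0.13 for replication, mitosis, oxidative phosphorylation, ribosomal proteins and ribosome biogenesis.

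Metabolic and stress lists added further calls, most of them rises. In the glycolysis and hypoxia list (20 genes, median 0.30), the oxygen-sensing hydroxylase Egln3 (0.42), Pgk1 (0.41) and Hk2 (0.33) were called higher. The pyruvate dehydrogenase kinase gene Pdk1 was called lower (-0.38). Of 18 NRF2 targets 4 rose: malic enzyme (Me1, 3.45, 1.56, 2.76 and 2.84 CPM in the DM libraries, against 1.04, 0.684, 0.721 and 1.01 CPM in the WT libraries; log2 fold change 1.62, SE 0.31, adjusted p = 0.00780), thioredoxin (Txn1, 0.50), Gclm and sulfiredoxin (Srxn1, 0.44). Of 21 genes of lysosomes and autophagy, 5 were called higher and 1 lower. Ulk1, the kinase that starts autophagy, was the member called lower, at 47.4, 49.1, 56.9 and 60.0 CPM in DM mice and 86.4, 89.6, 99.6 and 96.2 CPM in WT mice (log2 fold change -0.80, SE 0.11, adjusted p = 0.00103). DM and WT values were clearly separated for Me1 and Ulk1. Hexa (0.60), Ctsa (0.32), Lamp2 (0.42) and Lamp1 (0.33), all lysosomal, were among those that rose. Of 22 unfolded protein response and ATF4 genes (median 0.38), Psat1 of serine synthesis (0.49), Calr and the co-chaperone Dnajc3 (0.37) rose. Of 20 cholesterol genes, the sterol carrier Stard4 rose (0.38). The calls of Me1, Txn1, Ulk1 and Hexa held in each alternative run, and the calls of Egln3, Pgk1, Hk2, Pdk1, Srxn1, Ctsa, Lamp2, Lamp1, Psat1, Dnajc3 and Stard4 were lost in 4 to 12 alternatives (adjusted p up to 0.134).

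Of 24 p53 targets 4 were called higher and none lower, while the list median was 0.06 (-0.03 with library size as the only scaling). Zmat3, an RNA-binding p53 target, was at 23.2, 27.1, 21.6 and 19.7 CPM in the DM libraries, against 11.4, 13.9, 14.1 and 10.9 CPM in the WT libraries (log2 fold change 0.86, SE 0.14, adjusted p = 0.00259). Eda2r, a receptor of the tumour necrosis factor family, was at 2.55, 4.20, 2.77 and 2.53 CPM in DM mice and 1.02, 0.708, 0.995 and 0.815 CPM in WT mice (log2 fold change 1.77, SE 0.27, adjusted p = 0.00183). Ccng1 (cyclin G1, 0.42) and the Akt inhibitor Phlda3 (0.95) rose too. For Zmat3 and Eda2r the groups were well apart, with DM 2 the highest library of each. Among 20 apoptosis regulators, the initiator Casp9 (0.27) and the BH3 protein Bid (0.26) rose with Pawr, and the BH3 protein Bcl2l11 fell (-0.40). In the DNA repair list (26 genes) the recombination genes Xrcc2 (0.47) and Brca1 (0.34) and the mismatch sensor Msh6 (0.27) were called higher. Trp53bp1, which shields broken ends, was at 97.3, 106, 108 and 93.9 CPM in the DM libraries, against 140.3, 143, 181 and 154 CPM in the WT libraries (log2 fold change -0.61, SE 0.09, adjusted p = 0.00183), and the checkpoint kinase gene Chek2 fell by 0.29 on the log2 scale. The calls of Zmat3, Eda2r, Ccng1 and Trp53bp1 held in each alternative run, and the calls of Phlda3, Casp9, Bid, Bcl2l11, Xrcc2, Brca1, Msh6 and Chek2 were lost in 7 to 14 alternatives (adjusted p up to 0.188).

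Asxl1 and Srsf2 belong to the classes of chromatin and splicing genes. The lists of these classes had 0 to 15.4% of members called, beside 9.39% of all genes tested. None of 11 genes of the Asxl family and the Bap1 complex passed in either direction (median 0.04, and -0.06 with library size as the only scaling). Among 27 Polycomb genes, Phf19, which brings PRC2 to CG-rich DNA, rose (0.28), and Cbx7, a reader of its mark, fell (12.1, 13.9, 18.4 and 14.3 CPM in the DM libraries, against 20.5, 23.7, 23.4 and 28.2 CPM in the WT libraries; log2 fold change -0.71, SE 0.15, adjusted p = 0.0116). Kdm6b was the only call of 23 trithorax and enhancer genes. The methylcytosine dioxygenases Tet1 (101 to 116 CPM in DM and 128 to 162 CPM in WT; -0.39) and Tet3 (-0.20) fell, the calls of 13 DNA methylation genes. Of 17 SR protein genes and their kinases, Srsf1 rose (677, 555, 444 and 548 CPM in DM mice and 434, 422, 397 and 342 CPM in WT mice; log2 fold change 0.48, SE 0.13, adjusted p = 0.0360) and Clk1 fell. Hnrnpa2b1, an RNA-binding splicing regulator, was at 1196, 992, 852 and 982 CPM in the DM libraries, against 816, 782, 737 and 676 CPM in the WT libraries (log2 fold change 0.42, SE 0.09, adjusted p = 0.0164) and was the only call of 25 hnRNP and core spliceosome genes. The call of Cbx7 held in each alternative run, and the calls of Phf19, Tet1, Tet3, Srsf1 and Hnrnpa2b1 were lost in 1 to 12 alternatives (adjusted p up to 0.143). Of 17 reported splice targets of mutant SRSF2, Hnrnpa2b1 and Clk1 were the calls. Levels per gene say nothing of how the transcripts were spliced.

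Of 16 imprinted growth regulators, the receptor adaptor Grb10 rose (74.3 to 106 CPM in DM and 36.8 to 62.7 CPM in WT; 0.92), and Mest (0.893 to 1.45 CPM in DM and 2.13 to 2.35 CPM in WT; -1.05) and Impact (-0.36) fell. Plag1, itself a regulator of imprinted genes, was the only call of 9 fetal stem-cell genes. H2-Ob was the only call of 11 MHC class II genes. The call of Mest held in each alternative run, and the calls of Grb10 and Impact were lost in 5 and 9 alternatives (adjusted p up to 0.128). Calr rose and Flt3 fell among 29 drivers of myeloid neoplasms. None of 13 heat shock, 12 mitochondrially encoded and 3 tested Serpina3 genes was called in either direction.

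**Figure D4:**
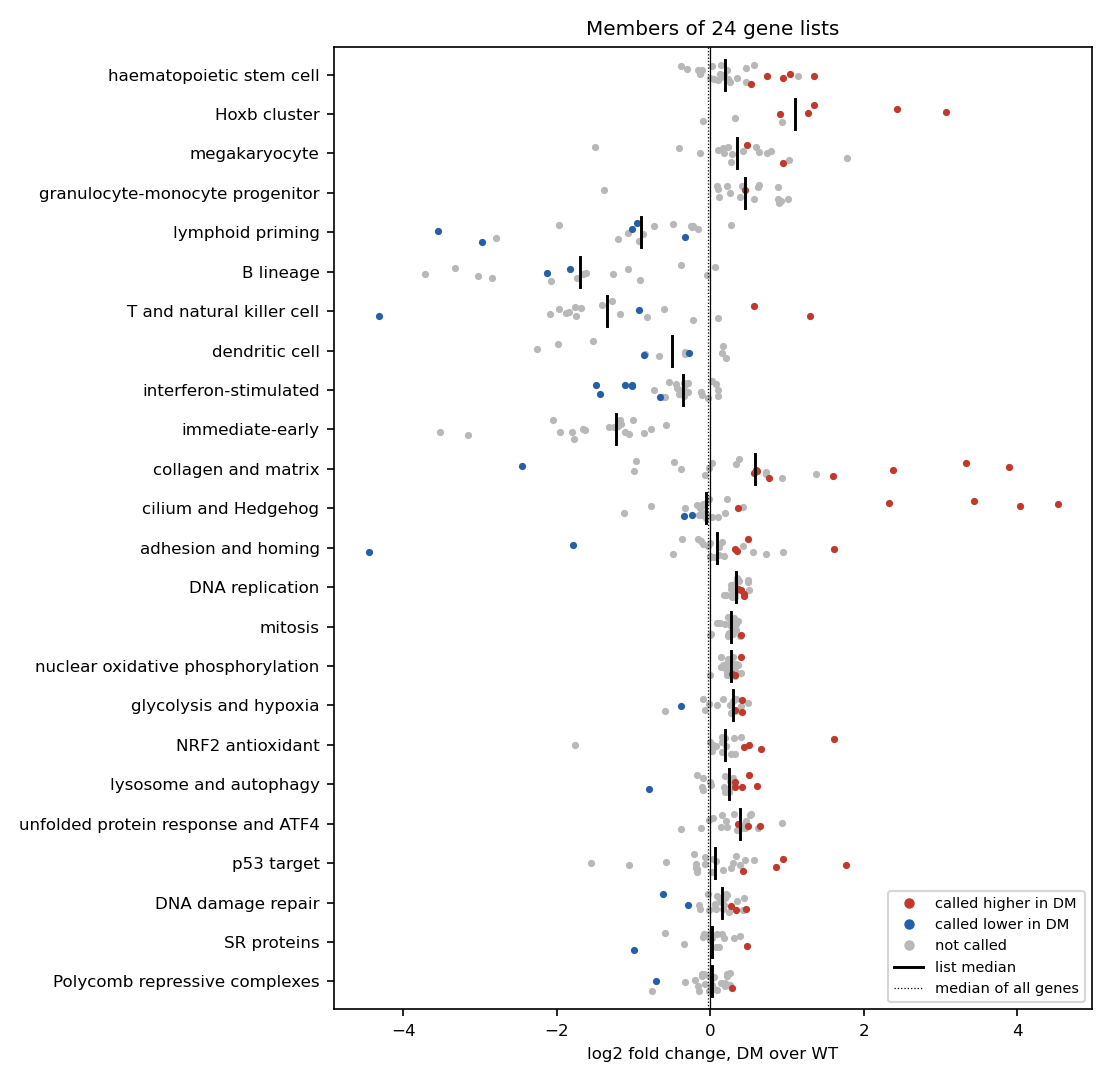
Log2 fold change of DM over WT for the tested members of 24 gene lists, red where called higher in DM, blue where called lower and grey where not called; the black bars are list medians and the dotted line is the median of all genes (-0.02). The Hoxb cluster (5 of 8 called higher) and the collagen list (8 of 22) lie to the right, and lymphoid priming genes (5 of 18 called lower) to the left.

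Annotation classes, looked at after the values were seen and therefore given without a test, differed in the direction of their calls. Of 14423 protein-coding genes, 996 were called higher and 580 lower, with a median log2 fold change of 0.07. Of 1428 TEC genes, a class of mostly unspliced transcripts that await experimental proof, none was called higher and 168 were called lower, with a median of -0.54. Antisense genes had 7 called higher and 107 lower of 1348 (median -0.46), and sense intronic genes 0 and 17 of 193 (median -0.54). The median level was 22.8 CPM for protein-coding genes, and 0.889, 0.496 and 0.576 CPM for TEC, antisense and sense intronic genes. Of 2560 protein-coding genes under 1 CPM, 83 were called higher and 147 lower. Falls also outnumbered rises in processed pseudogenes (69 and 7), processed transcripts (22 and 3) and lincRNA genes (39 and 14). The part of expression level in these directions was not tested. Across the alternatives the TEC count ran from 32 to 340 lower and from 0 to 8 higher, and it was 92 lower without WT 4.

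TEC genes took 0.183, 0.195, 0.241 and 0.176% of the counts of all tested genes in DM, against 0.281, 0.267, 0.302 and 0.395% in WT. Every DM library had a smaller share than every WT library, and WT 4 had the largest. Asxl1Tg libraries ranged from 0.206 to 0.315% and Srsf2P95H libraries from 0.195 to 0.260%. Antisense genes took 0.168 to 0.210% in DM and 0.221 to 0.291% in WT. Of the 168 lower TEC genes, 148 lie over a protein-coding gene. The same share was not counted over all TEC genes, so this overlap is not shown to mark the lower ones. The 124 protein-coding genes they overlap had a median log2 fold change of -0.08, with 2 called higher and 12 lower. Over all protein-coding genes the median was 0.07, with 6.91% called higher and 4.02% lower. Reads of overlapping genes cannot be told apart where the strand setting is not given, and the part of unspliced RNA or of RNA quality in this difference was not tested.

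**Figure D5:**
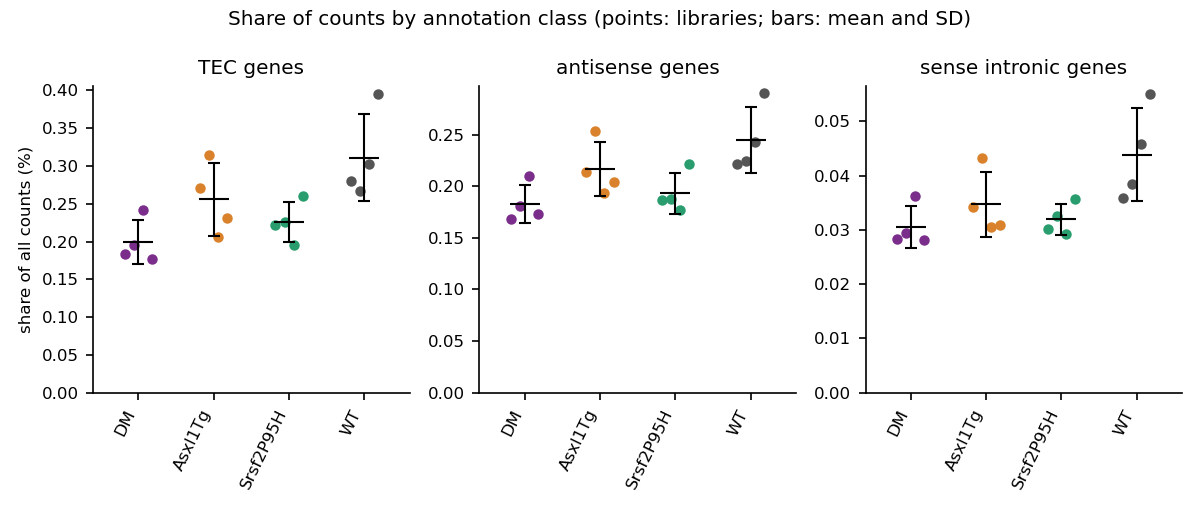
Share (%) taken by TEC, antisense and sense intronic genes in each library, out of the counts of all tested genes. The mean and SD of each genotype (n = 4) are drawn, and vertical axes start at 0. The 4 DM libraries lie at 0.176 to 0.241% for TEC genes, below the 4 WT libraries at 0.267 to 0.395%.

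The double mutant was also compared with each single mutant. Against Asxl1Tg 245 genes were called (1.08%; 193 higher, 0.848%, and 52 lower, 0.229%, in DM), and against Srsf2P95H 56 (0.246%; 49 higher, 0.215%, and 7 lower, 0.0308%, in DM). The DM libraries are shared by all 3 comparisons. Of 150 genes taken by the naming rule or picked later for the comparison with WT, 7 were called between DM and Asxl1Tg and 10 between DM and Srsf2P95H. Against Asxl1Tg these included the p53 targets Zmat3 (0.75, adjusted p = 0.0195), Eda2r (1.59, adjusted p = 0.0121) and Ccng1 (0.54, adjusted p = 0.00886), with Stard4 (0.45, adjusted p = 0.0252), Fscn1 (-1.29, adjusted p = 0.0352) and Trp53bp1 (-0.52, adjusted p = 0.0148). Zmat3 was at 22.9 ± 3.15 CPM in DM, 13.6 ± 2.56 CPM in Asxl1Tg, 15.4 ± 1.28 CPM in Srsf2P95H and 12.6 ± 1.67 CPM in WT (SD, n = 4 each). Eda2r averaged 3.01 ± 0.803 CPM in DM and 2.63 ± 0.315 CPM in Srsf2P95H, and Ccng1 106 ± 6.83 and 98.6 ± 12.3 CPM. Neither Eda2r (adjusted p = 0.990) nor Ccng1 (adjusted p = 0.945) passed between DM and Srsf2P95H in the same edgeR fit, and nor did Zmat3.

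Against Srsf2P95H the calls were Evc2 (2.73, adjusted p = 0.00200), Evc, Serpinh1, Macroh2a2 and Ifit1, with Dzip1l (2.87, adjusted p = 0.0149), Lama5 (1.43, adjusted p = 0.0272), Ulk1 (-0.54, adjusted p = 0.0496), Chek2 (-0.50, adjusted p = 0.00766) and Socs2 (-1.19, adjusted p = 0.0419). Ulk1 was at 53.4 ± 6.05 CPM in DM, 51.0 ± 5.48 CPM in Asxl1Tg, 77.7 ± 12.2 CPM in Srsf2P95H and 92.9 ± 6.06 CPM in WT (SD, n = 4 each). Hoxb5 averaged 3.65 ± 0.945 CPM in DM, 2.73 ± 0.316 in Asxl1Tg and 2.79 ± 0.534 in Srsf2P95H, and passed against neither (0.42, adjusted p = 0.356, and 0.39, adjusted p = 0.888). Flt3 averaged 289 ± 58.6 CPM in DM, 305 ± 74.5 in Asxl1Tg and 335 ± 49.7 in Srsf2P95H, and passed against neither. Over the alternatives the count ran from 10 to 1166 against Asxl1Tg and from 20 to 232 against Srsf2P95H.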

How the data were processed

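RNA of LSK cells was sequenced as paired-end reads of 100 bp from libraries of the NEB Ultra kit, per the labels' protocols. The deposited table holds counts per gene symbol for 55291 genes, which the authors did not normalize. FastQC, Trimmomatic 0.38, STAR 2.7.0e, HTSeq 0.11.2 and mm10 are named, per the submitters' processing notes, while the sources used here give neither the annotation release nor the strand setting. The columns of the transgene-only group carry a short name and were assigned by elimination. Coordinates and classes come from GENCODE M21 (GRCm38, the same assembly as mm10), in which 53292 symbols were found.

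Genes were kept with filterByExpr (minimum count 10) in edgeR 4.0.16 (R 4.3.3), scaled by TMM and fitted on all 16 libraries with robust quasi-likelihood dispersions. The Benjamini-Hochberg adjustment ran over 22749 genes. The median SE was 0.235, and 0.0982 for the 9461 genes at 10 CPM or more; counting error is part of these errors. Replicates are separate mice. Depth was 120 ± 6.47 M in DM and 97.8 ± 18.7 M in WT (SD, n = 4 each).

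The genotypes compared, the gene lists (53, of which 1013 entries matched) and the naming rule were chosen with earlier results of these data known. The rule took Asxl1 and Srsf2, and called genes whose libraries did not overlap and which are no predicted genes: the 8 largest rises and falls at 2 CPM or more, the same at 10 CPM or more, and 6 of each at 100 CPM or more. From each list it took as many as 3 called members, and the remaining ones were named after their values were seen. Values of 1 called gene, counted in its list, are not reported here. Same-numbered DM and WT libraries correlated at -0.237 to 0.295 after removal of group means, so the numbers were not used as pairs.

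On simulated counts for DM against WT (22357 genes), the test found 20 of 50 genes altered by 1.5-fold, 36 of 50 by 2-fold, 47 of 50 by 4-fold and 49 of 50 by 8-fold, and 10 of its 162 calls were false. The alternatives included limma-voom (limma 3.58.1) with quality weights, DESeq2 1.42.0, other scalings, filters and designs, and each library left out.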

Additional observations from a re-analysis of the deposited data

Results flagged for a closer look

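Each group of 4 libraries was examined for a library whose gap to its nearest neighbour took more of the group's range than Dixon's 95% critical value allows. Of 336 groups of values, 20 met this, where chance gives about 1 in 20. In WT 1 the levels of Evc (3.07 CPM, against 1.22 to 1.40 in the other WT libraries), Evc2 (4.96 CPM, against 1.38 to 1.90), Kif21a (8.69 CPM, against 2.87 to 3.77) and Trpm6 (1.37 CPM, against 0.324 to 0.398) were high, and that of Cmah was low (19.3 CPM, against 39.5 to 42.8). In WT 4 Lef1 (5.50 CPM, against 0.447 to 1.22), Ncr1 (1.78 CPM, against 0.133 to 0.381) and Hoxb6 (1.18 CPM, against 0.674 to 0.720) were high and Mcm4 was low (209 CPM, against 264 to 270.3). Ifit1 was low in WT 2 (6.55 CPM), Serpinh1 high in WT 3 (3.94 CPM) and the summed erythroid genes high in WT 2 (1444 CPM, against 736 to 758).

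Among DM libraries, DM 1 was low in Cmah (10.5 CPM) and Lck (10.3 CPM, against 15.6 to 16.2) and high in Lamp2 (233 CPM, against 190.2 to 193). DM 2 was high in Eda2r (4.20 CPM, against 2.53 to 2.77) and Hist1h4n (166 CPM, against 124 to 129). DM 3 was low in Bid (50.5 CPM, against 59.3 to 59.5) and high in the summed stem-cell genes (4994 CPM, against 4310 to 4425), and DM 4 was low in the summed monocyte genes (307 CPM, against 346 to 352).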

How the results depend on the processing

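The count of 2135 calls between DM and WT became 3914 with DESeq2 and 4311 with limma-voom with quality weights, which held 2085 and 2106 of the main calls. It was 1461 with no filter on low counts, of which 1435 were main calls. It was 586 to 2660 with each library left out, among them 586 without DM 1, 592 without DM 2, 742 without DM 4, 677 without WT 3, 1187 without WT 2 and 1040 without WT 4. The count was 782 at an absolute log2 fold change of at least 1. At 1 CPM in 4 libraries 761 of 1908 calls (39.9%) were higher, with library size only 551 of 2043 (27%) and without both WT 4 and Srsf2P95H 2 621 of 1491 (41.6%), against 49.6% in the main fit. With the replicate block the count was 2288 for DM against WT, 240 against Asxl1Tg and 62 against Srsf2P95H; the numbers were not shown to pair the mice. Against Asxl1Tg the 245 calls became 1166 with DESeq2, 1112 with limma-voom, 135 with RLE, 86 with library size only, 101 with no filter, 17 in a fit of the compared groups, 655 without both of the libraries just named, 43 at an absolute log2 fold change of at least 1 and 10 to 266 with a library left out. Against Srsf2P95H the 56 calls became 232 with DESeq2, 103 with limma-voom, 26 without both libraries and 20 to 48 with a library left out. Asxl1, at 0.04 and far from the threshold, was at -0.0567 with library size only and -0.0081 at 1 CPM in 4 libraries. Srsf2, at -0.01, was at 0.0026 with no filter and ran from -0.0772 (without WT 4) to 0.0743 (without WT 1) with a library left out. The cause of these moves was not tested. Of 148 called genes taken for naming, 45 were called in every alternative run that tested them, and none reversed its sign. DM 1, DM 2, WT 3, DM 4 and WT 4 ended the most calls when left out (90, 87, 87, 80 and 80). With library size only, 9 of 53 list medians changed sign, each within 0.088 of 0, and without WT 4, 5 did.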

Other observations

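Some genes outside the lists had adjusted p-values as small as those of the named ones, and were picked after their values were seen. Dmac2, linked to the assembly of a respiratory chain complex, was at 16.5, 17.8, 17.4 and 16.6 CPM in the DM libraries, against 29.5, 30.5, 31.8 and 25.6 CPM in the WT libraries (edgeR, log2 fold change -0.78, SE 0.08, adjusted p = 0.000114). Dock1, an activator of the GTPase Rac, was at 108, 119, 113 and 127 CPM in DM mice and 82.0, 61.1, 60.9 and 64.3 CPM in WT mice (log2 fold change 0.80, SE 0.08, adjusted p = 0.000167). The DM and WT libraries did not overlap for either gene. Arfgef3 rose by 1.49 and Sidt1, a transporter of double-stranded RNA, by 3.31 on the log2 scale.

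DM 1 and WT 1, the DM and WT libraries with Xist, were often the lowest of their group for the same genes. Of 55 genes taken for naming and called lower in DM, 24 (43.6%) were lowest in both DM 1 and WT 1, Flt3, Ccr9, Cmah, Arpp21, Lck and Tcf4 among them, and so were 12 of 18 lymphoid priming genes (66.7%). Over all 22749 genes the share was 9.28%. Of 93 genes taken for naming and called higher, 27 (29.0%) were highest in both libraries, against 9.95% of all genes. The summed level of the lymphoid priming list was lowest in WT 1 (2449 CPM) among the WT libraries. Among the DM libraries it was highest in DM 1 (2663 CPM, against 2329 to 2499). In the single mutants Xist was also high in Asxl1Tg 3, Srsf2P95H 2 and Srsf2P95H 3. Asxl1Tg 3 (2959 CPM) and Srsf2P95H 2 (2919 CPM) had the highest sums of their groups, and Srsf2P95H 3 was at 2480 CPM. With Xist level as a covariate 2419 genes were called, 2088 of them among the 2135 of the main fit. Sex and age are not in the labels, and their part in these levels was not tested.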
